A study of Homo sapiens with 6 samples.

Results

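The genes of 7 solute carrier families that move amino acids and related molecules across membranes were followed in A549, a cell line from a human lung adenocarcinoma. Members were all symbols in the deposited tables that begin with SLC1A, SLC3A, SLC6A, SLC7A, SLC36A, SLC38A or SLC43A and a number. Of 50 matching symbols, 5 were left out: SLC7A11, the pseudogenes SLC6A10P, SLC7A5P1 and SLC7A5P2, and the opposite-strand gene SLC7A6OS. That left 45 members among 17787 symbols. The siFOXD3 group (3 libraries, genotype label siFOXD3) is named for a small interfering RNA against the forkhead transcription factor FOXD3. The siNC group (3 libraries, genotype label wild type) served as the control; the labels do not spell out siNC, and no agent beyond these names, dose or time is given in the sources used here. Both groups are the same cell line, and the labels do not say that replicates were separate cultures, so p-values measure the spread between these libraries, which may be technical. The comparison is meant to show which transcripts depend on FOXD3.

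Cells take up amino acids through carriers that differ in substrate and in driving force. Sodium-coupled carriers of the SLC1A, SLC6A and SLC38A families concentrate amino acids inside the cell, while many SLC7A proteins are exchangers that trade an internal amino acid for an external one. Several SLC7A light chains reach the plasma membrane only when joined to the heavy chain SLC3A2, also called 4F2hc or CD98, and the pair SLC7A5 and SLC3A2 supplies many carcinoma cells with leucine. SLC36A proteins and some SLC38A proteins sit on lysosomes, where they export amino acids or report them to the growth kinase mTORC1. The families also hold carriers of other molecules, such as taurine, creatine, monoamines and nucleobases.

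The values are FPKM, fragment numbers corrected for the length of the transcript and the size of the library, so levels can be set side by side between genes. Libraries listed 15649 to 15752 symbols in siFOXD3 and 16227 to 16286 in siNC. The files hold no counts; the steps between low values gave an estimated 7870000 to 8770000 fragments per siFOXD3 library and 7520000 to 8120000 per siNC library. At that depth 3 fragments, which is what a count of 0 still allows, were worth 0.185 to 0.206 FPKM in siFOXD3 and 0.200 to 0.215 FPKM in siNC for a transcript of 2000 bases, which covers counting error only. FOXD3 itself was near that limit, listed at 0.0749 FPKM in siFOXD3 replicate 2 and absent from siFOXD3 replicates 1 and 3, and at 0.152, 0.291 and 0.134 FPKM in siNC replicates 1 to 3. All 6 epithelial markers examined were at 1 FPKM or more in both groups. All 8 photoreceptor markers and all 5 markers of kidney tubule and intestine were under 1 FPKM in every library, with SAG, GNAT1, RCVRN, LRP2, FABP2 and APOA4 not listed. Over 239 genes, the median difference between libraries of 1 group was 1.15 to 1.42 times counting noise among the siFOXD3 libraries. The median was 1.08 times for siNC replicates 2 and 3, and 2.10 and 2.51 times for the pairs with siNC replicate 1. These 2 pairs stood furthest apart. Means were higher, at 1.49 to 1.92 among siFOXD3, 2.40 for siNC replicates 2 and 3, and 4.86 and 5.17 for those 2 pairs. In bulk samples, fewer cells that express a gene and less of its RNA per cell cannot be told apart.

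Differences were tested with limma on log2(FPKM + 1) over the 12555 genes that reached 1 FPKM in 3 or more libraries, and a gene is called at a Benjamini-Hochberg adjusted p under 0.05, two-sided. Of the 45 members 26 were tested, and 8 were called higher and 11 lower in siFOXD3, or 19 in all (73.1%). Among all genes tested 65.9% were called, 27.2% higher and 38.7% lower, so the members' shares (30.8% and 42.3%) lay near the background. Without siNC replicate 1, 8 were called higher and 9 lower of the 24 then tested, which left out SLC1A3 and SLC43A1. Of all 12107 genes then tested, 3434 were called higher and 4540 lower. The median log2 fold change was -0.02 over the tested members and -0.08 over all genes tested. SLC1A3 and SLC43A1 reached 1 FPKM in siNC libraries and in no siFOXD3 library, so they passed the filter through the group where they were high. The 3 largest differences were falls, in SLC1A3, SLC43A1 and SLC1A4, each of at least 1 on the log2 scale, where 5.97% of all genes were called lower by that much. No member was called higher by that much, against 1.74% of all genes. By at least 0.5 in size, 1 member was called higher and 6 lower, against 11.2% and 20.7% of all genes. In 19 tested members the siFOXD3 and siNC values were fully separate, and these were the 19 called; of all genes tested, 70.7% did not overlap.

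**Figure D1:**
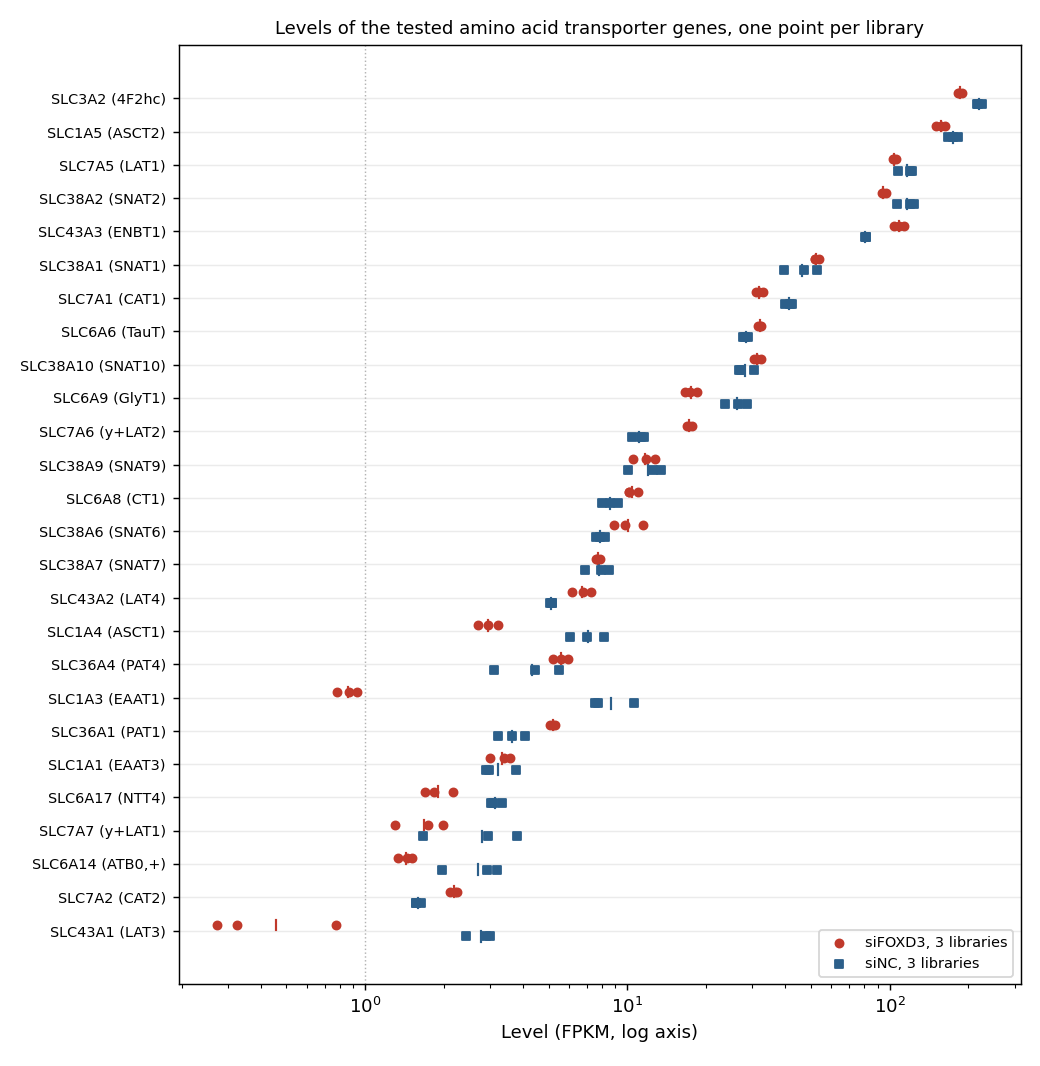
Level of each of the 26 tested members in FPKM (log axis), with 1 point per library, siFOXD3 circles above siNC squares, and a short line at each group's mean; the dotted line marks 1 FPKM. SLC3A2 and SLC1A5 lie at the top, between 150 and 226 FPKM, and the widest separations are those of SLC1A3 and SLC43A1.

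The summed level of the 45 members was 905 ± 7.66 FPKM in siFOXD3 and 975 ± 32.1 FPKM in siNC (SD, n = 3 each). SLC3A2, SLC1A5, SLC7A5, SLC38A2 and SLC43A3 together made up 71.7% ± 0.343 of that sum in siFOXD3 and 72.7% ± 0.368 in siNC. SLC3A2 brings light chains to the membrane, and SLC1A5, SLC7A5 and SLC38A2 carry neutral amino acids. The 5 genes' own differences were small, at ratios of group means between 0.811 (SLC38A2) and 1.34 (SLC43A3), siFOXD3 over siNC.

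The heavy chain SLC3A2 was the most abundant member and fell slightly. It had 183, 184 and 189 FPKM in siFOXD3 replicates 1 to 3, against 217, 226 and 216 FPKM in siNC replicates 1 to 3. All siFOXD3 libraries lay below all siNC libraries, with a log2 fold change of -0.24 ± 0.04 (SE; limma, adjusted p = 0.000558), with -0.37 after quantile normalization and -0.16 with median-of-ratios scaling. SLC3A1, or rBAT, the heavy chain of the kidney cystine carrier, was listed in 1 library at 0.0601 FPKM.

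Among the light chains that join SLC3A2, SLC7A6 rose and SLC7A5 fell slightly. SLC7A6, or y+LAT2, which exchanges internal arginine for external neutral amino acids such as glutamine, had 16.8, 17.2 and 17.7 FPKM in siFOXD3, against 10.4, 11.3 and 11.5 FPKM in siNC. The 3 siFOXD3 libraries were the highest, the ratio of means was 1.56 and the log2 fold change was 0.60 ± 0.07 (SE; limma, adjusted p = 2.12e-05), and 8.25% of all genes tested lay as high or higher. Without use of strand, reads of SLC7A6 and of the overlapping SLC7A6OS cannot be told apart; SLC7A6OS lay at 3.03 ± 0.674 FPKM in siFOXD3 and 2.84 ± 0.270 FPKM in siNC (SD, n = 3 each).

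SLC7A5, or LAT1, the exchanger of large neutral amino acids, had 104, 105 and 103 FPKM in siFOXD3 and 122, 120 and 108 FPKM in siNC. The groups did not overlap, with siNC replicate 3 nearest to siFOXD3, and the log2 fold change was -0.16 ± 0.05 (SE; limma, adjusted p = 0.0231). The call was lost with median-of-ratios scaling (-0.08, adjusted p = 0.263), with limma without trend and robust (adjusted p = 0.0631), and without siFOXD3 replicate 1, 2 or 3 or siNC replicate 2 (adjusted p = 0.0637, 0.0520, 0.0748 and 0.0709). SLC7A5 has partial copies whose reads cannot be fully told from its own. The rows SLC7A5P1 and SLC7A5P2 together made up 6.78% ± 0.526 of the 3 rows in siFOXD3 and 5.65% ± 0.562 in siNC.

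The other light chains were rarer. SLC7A7, or y+LAT1, the same kind of exchanger in kidney, gut and macrophages, had 1.74, 1.30 and 1.97 FPKM in siFOXD3 and 3.79, 1.66 and 2.94 FPKM in siNC. Its groups overlapped through siNC replicate 2, and it was not called (log2 fold change -0.47, 95% interval -0.91 to -0.04, limma, adjusted p = 0.0524), while without siNC replicate 2 it was at -0.71 (adjusted p = 0.00282). SLC7A8, or LAT2, a neutral exchanger of polarized epithelia, was under the filter at 0.175, 0.157 and 0.316 FPKM in siFOXD3 and 1.07, 1.09 and 0.853 FPKM in siNC. All 3 siNC libraries were higher, and a fit with no filter gave -0.72 ± 0.09 (SE; limma, adjusted p = 0.000306). SLC7A8 failed the filter and its library values were added after values were seen, so this p is description only. SLC7A9, the partner of SLC3A1, was at 0.0971 FPKM or less everywhere.

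SLC7A11, the cystine and glutamate exchanger xCT, is no member but also joins SLC3A2. It had 57.4, 54.5 and 57.9 FPKM in siFOXD3, against 32.5, 52.7 and 45.4 FPKM in siNC (log2 fold change 0.40 ± 0.15, SE, limma, adjusted p = 0.0425), with siNC replicate 1 far below the other siNC libraries. Over the light chains SLC7A5, SLC7A6, SLC7A7, SLC7A8 and SLC7A11, SLC7A6 held 9.59% ± 0.240 of the summed FPKM in siFOXD3 and 6.33% ± 0.427 in siNC, and SLC7A5 held 57.9% ± 1.07 in siFOXD3 and 66.7% ± 4.46 in siNC (SD, n = 3 each). The level of SLC3A2 over the sum of these light chains was 1.01, 1.03 and 1.05 in siFOXD3 replicates 1 to 3 and 1.28, 1.21 and 1.28 in siNC replicates 1 to 3. With the rows of the pseudogenes SLC7A5P1 and SLC7A5P2 added to the light chains, it was 0.972, 0.992 and 1.005 in siFOXD3 and 1.23, 1.16 and 1.23 in siNC. Over the member light chains SLC7A5, SLC7A6, SLC7A7 and SLC7A8 alone, it was 1.49, 1.48 and 1.54 in siFOXD3 and 1.58, 1.69 and 1.75 in siNC. There siFOXD3 replicate 3 lay close to siNC replicate 1. In each form the ratio was lower in each siFOXD3 library than in any siNC library.

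**Figure D2:**
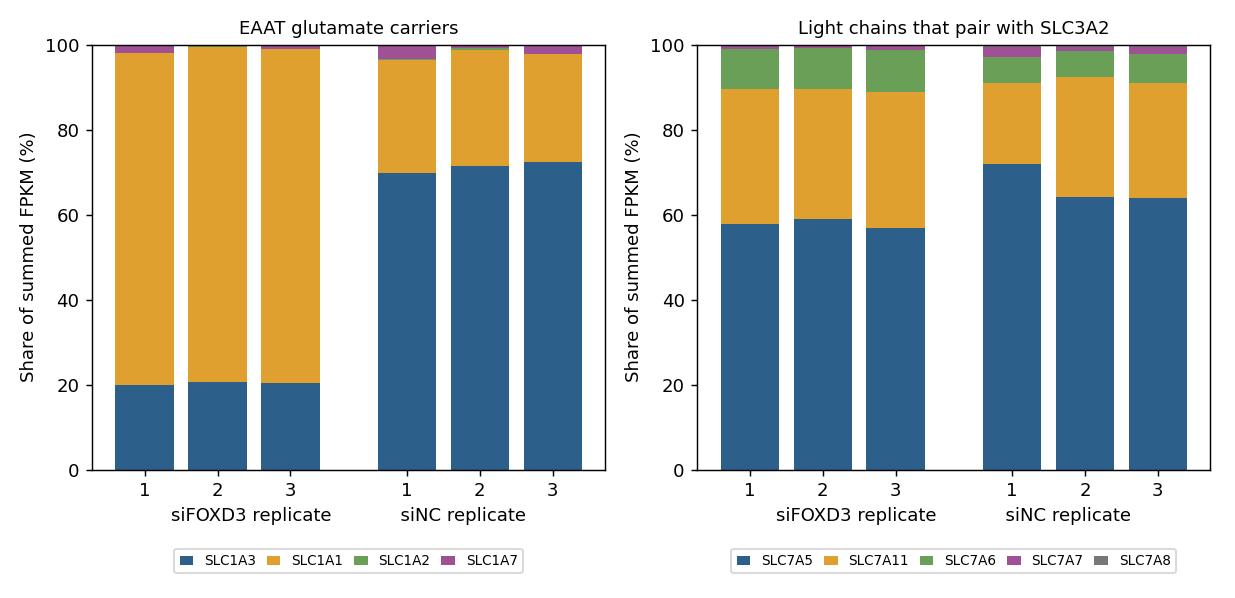
Share of the summed FPKM (%) that each gene held in each library, siFOXD3 replicates left of siNC replicates, for the EAAT members (left) and the light chains that pair with SLC3A2, SLC7A11 included (right). SLC1A3 held 19.9% to 20.6% of the EAAT sum in siFOXD3 and 69.7% to 72.3% in siNC, while SLC7A5 stayed the largest light chain in every library.

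Of 4 tested SLC1A members, 3 were called lower and SLC1A1 was not called, where 38.7% of all genes tested were called lower. Of the 3, SLC1A3 passed the filter through siNC alone and SLC1A5 lost its call in some alternatives. SLC1A5, or ASCT2, a sodium-dependent exchanger known as a main route of glutamine into carcinoma cells, had 150.3, 157 and 163 FPKM in siFOXD3 and 167, 182 and 175 FPKM in siNC. The siFOXD3 libraries were all lower, with siFOXD3 replicate 3 close to siNC replicate 1, and the log2 fold change was -0.15 ± 0.05 (SE; limma, adjusted p = 0.0208). The call was lost with median-of-ratios scaling (-0.07, adjusted p = 0.244), with limma without trend and robust (adjusted p = 0.0632), and without siFOXD3 replicate 1 or 2 or siNC replicate 2 (adjusted p = 0.101, 0.0573 and 0.0719).

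SLC1A4, or ASCT1, the related carrier of alanine, serine and cysteine, was far rarer and fell more. It had 2.70, 2.94 and 3.20 FPKM in siFOXD3, against 6.02, 8.15 and 6.98 FPKM in siNC. The groups stood well apart, at 0.418 times the siNC mean and a log2 fold change of -1.02 ± 0.11 (SE; limma, adjusted p = 1.93e-05), which was -0.60 with a pseudocount of 5. SLC1A4 held 1.84% ± 0.0821 of the summed SLC1A4 and SLC1A5 level in siFOXD3 and 3.87% ± 0.403 in siNC (SD, n = 3 each).

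SLC1A3, or EAAT1, a sodium-coupled glutamate and aspartate carrier best known from astrocytes, had the largest difference of all tested members. Its values were 0.864, 0.929 and 0.781 FPKM in siFOXD3 and 7.75, 7.54 and 10.6 FPKM in siNC. Every siNC library was more than 8 times any siFOXD3 library, and siNC averaged 10.1 times siFOXD3. The log2 fold change was -2.36 ± 0.13 (SE, limma, adjusted p = 2.08e-07), and -3.18 and -1.21 with pseudocounts of 0.1 and 5. Of all genes tested, 0.327% lay as low or lower. SLC1A3 passed the filter on low values through the siNC libraries alone, so its p and its place among the genes tested are description only. The exact permutation test, two-sided, cannot give a p under 0.1 for 3 libraries against 3.

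SLC1A1, or EAAT3, which also takes up cysteine, was not called. It had a mean of 3.31 ± 0.288 FPKM in siFOXD3 and 3.20 ± 0.470 FPKM in siNC (SD, n = 3 each), and its groups overlapped (log2 fold change 0.04, 95% interval -0.20 to 0.29, limma, adjusted p = 0.749), though it was at 0.31 after quantile normalization (adjusted p = 0.0291). SLC1A1 was above SLC1A3 in every siFOXD3 library and below it in every siNC library. SLC1A3 held 20.3% ± 0.332 of the EAAT sum in siFOXD3 and 71.2% ± 1.30 in siNC. The sum of the EAAT members was 4.22 ± 0.363 FPKM in siFOXD3 and 12.1 ± 2.26 FPKM in siNC. SLC1A2 and SLC1A7, known from brain and retina, stayed under 0.381 FPKM in every library.

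Markers of other cell types were also read. Those of glia and neurons were examined beside SLC1A3 and the SLC6A genes, which are well known from brain. Of 8 such markers, 2 reached 1 FPKM in either group, and the summed level was 30.7 to 31.8 FPKM in siFOXD3 and 27.5 to 33.6 FPKM in siNC. The astrocyte markers GFAP and AQP4 had means of 0.0420 and 0.0107 FPKM in siFOXD3, and 0.0236 and 0.0458 FPKM in siNC. The sum came almost wholly from MAP2 and TUBB3, which had means of 8.18 and 22.8 FPKM in siFOXD3, and 10.8 and 19.3 FPKM in siNC. Of 6 leukocyte markers, CD68 and CD14 reached 1 FPKM in either group, and both were called lower (log2 fold change -0.16 and -0.80); the summed level of the 6 was 67.2 to 68.3 FPKM in siFOXD3 and 72.2 to 82.8 FPKM in siNC, and PTPRC averaged 0.194 FPKM in siFOXD3 and 0.227 FPKM in siNC. Of 5 fibroblast markers, COL1A1 alone reached 1 FPKM and was not called, DCN and LUM were not listed, and the sum was 2.94 to 3.48 FPKM in siFOXD3 and 3.57 to 4.49 FPKM in siNC. Of 4 endothelial markers, CDH5 alone reached 1 FPKM and was called lower (-0.40), with a sum of 1.87 to 2.18 FPKM in siFOXD3 and 2.55 to 3.40 FPKM in siNC. Of the 6 epithelial markers, KRT8 (0.64), KRT18 (0.34) and EPCAM (0.47) were called higher, and CDH1 (-0.21) and KRT7 (-0.15) lower. The part of these cell types in the transporter values was not tested.

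Cationic amino acids enter through the CAT carriers, and the 2 tested moved in opposite directions. SLC7A1, or CAT1, the general carrier of arginine and lysine, had 31.7, 30.9 and 32.8 FPKM in siFOXD3, against 42.3, 41.8 and 40.0 FPKM in siNC. It fell in every siFOXD3 library relative to every siNC library, with a log2 fold change of -0.37 ± 0.05 (SE; limma, adjusted p = 0.000131). SLC7A2, or CAT2, which supplies arginine in macrophages and liver, had a mean of 2.19 ± 0.0709 FPKM in siFOXD3 and 1.58 ± 0.0440 FPKM in siNC (SD, n = 3 each). Its log2 fold change of 0.30 ± 0.10 (SE; limma, adjusted p = 0.0180) was 0.13 with a pseudocount of 5 and 0.60 after quantile normalization, and the call was lost without siFOXD3 replicate 2 or 3 or siNC replicate 3 (adjusted p = 0.0545, 0.0532 and 0.0502). SLC7A4, a CAT-like protein with no established transport activity, stayed at 0.307 FPKM or less.

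Of the SLC43A genes, 1 fell and 2 rose, where 38.7% of all genes tested were called lower and 27.2% higher. SLC43A1, or LAT3, a facilitative carrier of leucine and other large neutral amino acids, had 0.271, 0.323 and 0.772 FPKM in siFOXD3, against 2.42, 2.995 and 2.87 FPKM in siNC. The groups were far apart, with siFOXD3 replicate 3 above the other 2, and the log2 fold change was -1.38 ± 0.14 (SE; limma, adjusted p = 1.54e-05), or -2.47 and -0.51 with pseudocounts of 0.1 and 5. A value as low or lower was found in 2.26% of all genes tested. SLC43A1 passed the filter on low values through the siNC libraries alone, so its p and this share are description only. SLC43A2, or LAT4, the related carrier, averaged 6.72 ± 0.544 FPKM in siFOXD3 and 5.13 ± 0.0398 FPKM in siNC (SD, n = 3 each; log2 fold change 0.33, limma, adjusted p = 0.00509), with 0.21 at a pseudocount of 5 and 0.51 after quantile normalization.

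SLC43A3 carries nucleobases such as adenine rather than amino acids, and it was the most abundant member that rose. It had 113, 109 and 104 FPKM in siFOXD3, against 81.1, 80.3 and 81.1 FPKM in siNC. The siNC libraries were nearly equal and all siFOXD3 libraries were higher, with a log2 fold change of 0.42 ± 0.05 (SE; limma, adjusted p = 2.84e-05).

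**Figure D3:**
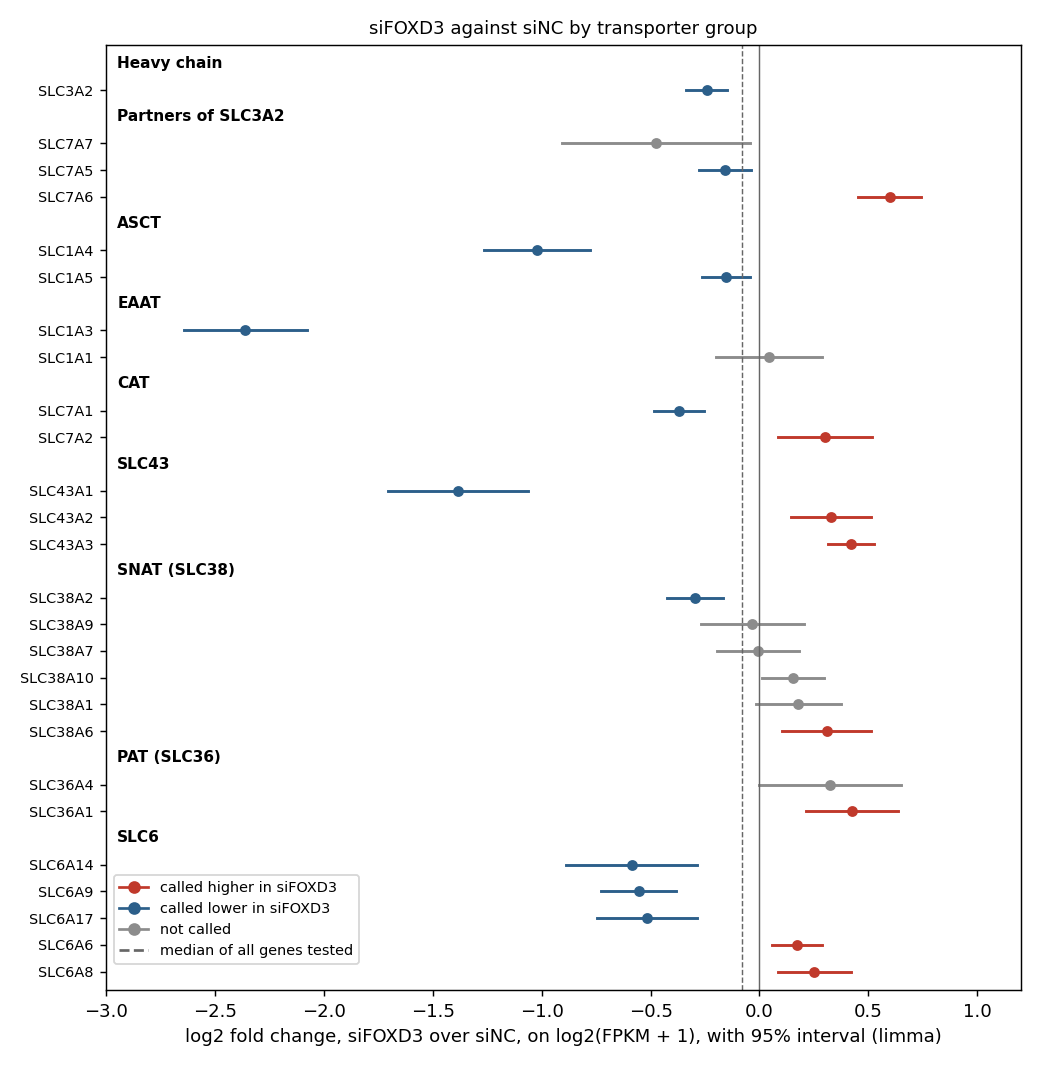
The log2 fold change of each tested member, siFOXD3 over siNC on log2(FPKM + 1), with limma's 95% interval, by transporter group; red marks genes called higher, blue called lower and grey not called, and the dashed line is the median of all genes tested at -0.08. The partners of SLC3A2 and each of the groups EAAT, CAT, SLC43, SNAT and SLC6 hold members on both sides of 0. The tested members range from SLC1A3 at -2.36 to SLC7A6 at 0.60.

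The SLC38A genes encode sodium-coupled carriers of glutamine, alanine and other neutral amino acids. Of 6 tested, SLC38A6 rose, SLC38A2 fell and 4 were not called, where 65.9% of all genes tested were called. SLC38A2, or SNAT2, the member known to be induced when amino acids are scarce, had 93.5, 94.1 and 96.8 FPKM in siFOXD3, against 107, 124 and 119 FPKM in siNC. All siFOXD3 libraries were lower, and the log2 fold change was -0.30 ± 0.06 (SE; limma, adjusted p = 0.00119). SLC38A1, or SNAT1, had 51.8, 51.9 and 53.7 FPKM in siFOXD3 and 39.6, 52.7 and 47.2 FPKM in siNC. It overlapped between groups through siNC replicate 2 and was not called (log2 fold change 0.18, 95% interval -0.01 to 0.37, limma, adjusted p = 0.0934), but was at 0.27 without siNC replicate 2 (adjusted p = 0.0113) and at 0.26 with median-of-ratios scaling (adjusted p = 0.0188). The level of SLC38A2 over that of SLC38A1 was 1.80, 1.81 and 1.80 in siFOXD3 replicates 1 to 3 and 2.70, 2.35 and 2.53 in siNC replicates 1 to 3, lower in each siFOXD3 library.

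SLC38A10, a less studied member, had 31.1, 32.3 and 30.4 FPKM in siFOXD3 and 27.0, 30.4 and 26.6 FPKM in siNC. Its groups touched at siNC replicate 2 and it was not called (log2 fold change 0.16, 95% interval 0.01 to 0.30, limma, adjusted p = 0.0519), while without siNC replicate 2 it was at 0.21 (adjusted p = 0.0124) and with median-of-ratios scaling at 0.24 (adjusted p = 0.00788). SLC38A6 averaged 10.1 ± 1.32 FPKM in siFOXD3 and 7.89 ± 0.286 FPKM in siNC (SD, n = 3 each; log2 fold change 0.31, limma, adjusted p = 0.0127), and lost its call without siFOXD3 replicate 3 (0.22, adjusted p = 0.0573). Its exons overlap TRMT5 on the other strand, with a mean of 5.61 FPKM over the 6 libraries. SLC38A3, or SNAT3, a glutamine carrier of liver, kidney and astrocytes, was under the filter, with 0.302, 0.219 and 0.342 FPKM in siFOXD3 and 1.26, 0.922 and 1.45 FPKM in siNC. All siNC libraries were higher, and a fit with no filter gave -0.77 ± 0.11 (SE; limma, adjusted p = 0.000620). SLC38A3 failed the filter and its library values were added after values were seen, so this p is description only.

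Of the lysosomal carriers SLC38A9, SLC38A7 and SLC36A1, none was called lower. SLC38A9, the arginine sensor that signals to mTORC1, averaged 11.7 ± 1.101 FPKM in siFOXD3 and 12.01 ± 1.79 FPKM in siNC (SD, n = 3 each; log2 fold change -0.03, 95% interval -0.27 to 0.21, limma, adjusted p = 0.808). SLC38A7, which exports glutamine and asparagine from lysosomes, was at 7.71 ± 0.149 FPKM in siFOXD3 and 7.78 ± 0.813 FPKM in siNC (log2 fold change -0.01, 95% interval -0.20 to 0.18, limma, adjusted p = 0.945). Their groups overlapped. SLC36A1, or PAT1, a proton-coupled exporter of small neutral amino acids, rose: it had 5.30, 5.21 and 5.07 FPKM in siFOXD3, against 4.08, 3.61 and 3.20 FPKM in siNC. Its groups did not overlap (log2 fold change 0.42 ± 0.09, SE, limma, adjusted p = 0.00264), and the value was 0.24 with a pseudocount of 5 and 0.64 after quantile normalization. SLC36A4, or PAT4, averaged 5.57 ± 0.358 FPKM in siFOXD3 and 4.33 ± 1.19 FPKM in siNC (SD, n = 3 each), overlapped through siNC replicate 2 and was not called (log2 fold change 0.32, 95% interval -0.0024 to 0.65, limma, adjusted p = 0.0741). Without siNC replicate 2 it was at 0.47 (adjusted p = 0.0121), after quantile normalization at 0.53 (0.00850) and with median-of-ratios scaling at 0.39 (0.0317).

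Of 14 SLC6A members 5 were tested, with 3 lower and 2 higher, where 38.7% of all genes tested were called lower and 27.2% higher. SLC6A9, or GlyT1, the glycine carrier, had 18.4, 16.5 and 17.3 FPKM in siFOXD3, against 26.4, 28.5 and 23.5 FPKM in siNC. The groups were well apart, with a log2 fold change of -0.55 ± 0.08 (SE; limma, adjusted p = 0.000120). Exons of SLC6A9 overlap CCDC24 on the other strand, which had a mean of 9.01 FPKM over the 6 libraries. SLC6A14, or ATB0,+, a carrier of both neutral and cationic amino acids, had 1.44, 1.34 and 1.505 FPKM in siFOXD3, against 2.91, 1.96 and 3.18 FPKM in siNC, with no overlap (log2 fold change -0.59 ± 0.14, SE, limma, adjusted p = 0.00329). SLC6A17, or NTT4, a vesicular carrier of neutral amino acids in neurons, had 2.16, 1.70 and 1.82 FPKM in siFOXD3, against 3.31, 3.07 and 3.005 FPKM in siNC (log2 fold change -0.52 ± 0.10, SE, limma, adjusted p = 0.00128). Both lost the call after quantile normalization, SLC6A14 at -0.30 (adjusted p = 0.0828) and SLC6A17 at -0.25 (adjusted p = 0.0591), and with a pseudocount of 5 they were at -0.25 and -0.24.

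The SLC6A carriers that rose move molecules other than the amino acids of proteins. SLC6A6, the taurine carrier, had 32.0, 31.6 and 32.3 FPKM in siFOXD3, against 27.6, 28.96 and 28.1 FPKM in siNC, a small difference with no overlap (log2 fold change 0.17 ± 0.05, SE, limma, adjusted p = 0.0120). SLC6A8, the creatine carrier, averaged 10.4 ± 0.499 FPKM in siFOXD3 and 8.59 ± 0.593 FPKM in siNC (SD, n = 3 each; log2 fold change 0.25, limma, adjusted p = 0.0133) and lost the call without siFOXD3 replicate 1 (0.22, adjusted p = 0.0610). Its pseudogene SLC6A10P stayed at 0.0539 FPKM or less.

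The 19 members that were not tested included 17 under 1 FPKM in every library, the highest of them SLC6A2, the noradrenaline carrier, at 0.546 FPKM in siNC replicate 2. Of the 19, 5 were listed in 1 library each: SLC3A1, SLC6A3, SLC6A11, SLC6A18 and SLC36A3. At a depth where 3 fragments are worth about 0.2 FPKM, differences among most of them were not detectable. In the fit with no filter, limma called SLC1A7, SLC38A3 and SLC7A8 lower and none of the 19 higher. That fit called 5543 lower and 3365 higher of all 17787 genes. These include the 12555 genes that passed the filter, so they give no share over low genes alone. SLC1A7 was at 0.087 FPKM or less in siFOXD3 and 0.0934 to 0.380 FPKM in siNC, so its call rests on values around the worth of 3 fragments.

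**Figure D4:**
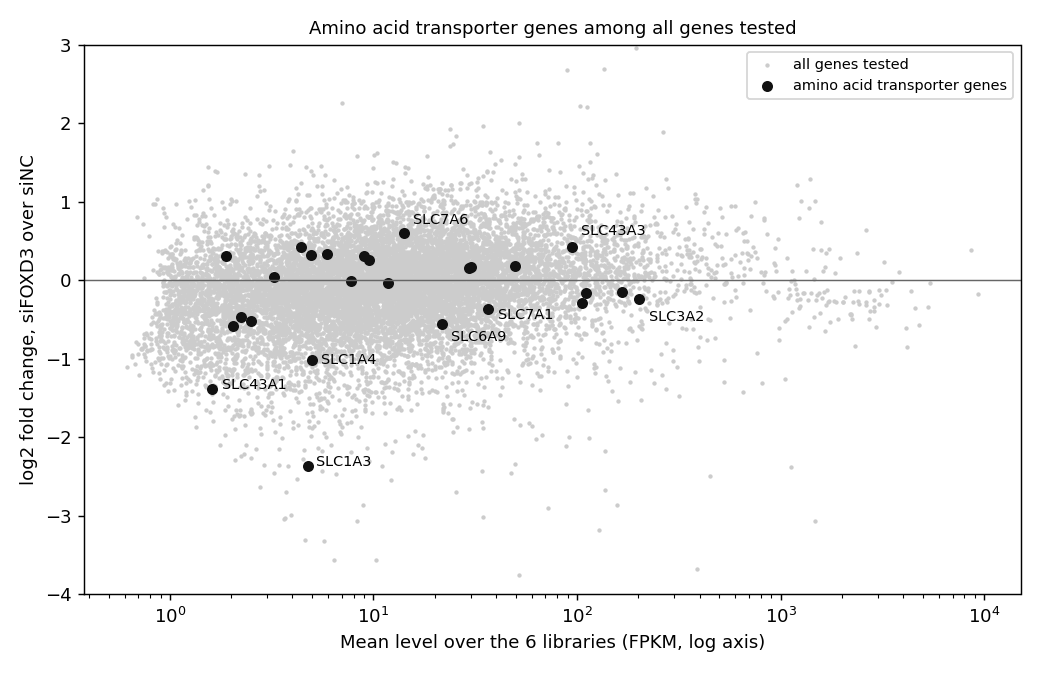
Mean level over the 6 libraries (FPKM, log axis) against log2 fold change, siFOXD3 over siNC, for all 12555 genes tested (grey) and the 26 tested members (black); 18 genes lie outside the plotted range of -4 to 3. The abundant members SLC3A2 and SLC43A3 lie within 0.5 of 0, and the members furthest from 0, SLC1A3 and SLC43A1, have means under 5 FPKM.

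Other genes of amino acid sensing and use were counted from lists, to be read beside the 27.2% of all genes tested that were called higher, the 38.7% called lower and their median log2 fold change of -0.08. A list of 13 stress response genes held ATF3, ATF4, ATF5, CEBPB, CEBPG, CHAC1, DDIT3, PPP1R15A, TRIB3 and the kinases EIF2AK1, EIF2AK2, EIF2AK3 and EIF2AK4. The list is not particular to lack of amino acids. All 13 were tested, and 1 rose and 10 fell (median log2 fold change -0.55). ATF4, the transcription factor translated when amino acids are scarce, had 473, 456 and 490.0 FPKM in siFOXD3, against 652, 656 and 669 FPKM in siNC, lower in every siFOXD3 library (log2 fold change -0.48 ± 0.04, SE, limma, adjusted p = 3.92e-06). CHAC1, a glutathione-degrading enzyme induced by ATF4, averaged 4.38 FPKM in siFOXD3 and 21.1 FPKM in siNC (-2.04). The stress-induced factor ATF3 averaged 2.89 FPKM in siFOXD3 and 12.6 FPKM in siNC (-1.80), and the phosphatase subunit PPP1R15A 19.1 FPKM in siFOXD3 and 50.9 FPKM in siNC (-1.36). ATF5 was the 1 that rose, with 52.8 FPKM in siFOXD3 and 19.7 FPKM in siNC (1.39).

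Of 16 tested enzymes of glutamine, glutamate and branched chain amino acids, 2 rose and 8 fell (median -0.25). Among all genes tested, 27.2% were called higher and 38.7% lower. Asparagine synthetase ASNS had 35.7, 32.9 and 39.0 FPKM in siFOXD3, against 138, 157 and 146 FPKM in siNC (log2 fold change -2.00 ± 0.07, SE, limma, adjusted p = 2.1e-08). GPT2, the mitochondrial alanine transaminase, was at -1.02, BCAT1, which transaminates branched chain amino acids, at -0.96 and PPM1K, which activates their breakdown, at -0.95. The list of amino acid sensing to mTORC1 also held MTOR, RPTOR and MLST8 of mTORC1 itself, and TSC1, TSC2 and RHEB. Of its 32 tested genes, 6 rose, 9 fell and 17 were not called (median -0.13). That made 15 of 32 called, against 65.9% of all genes tested. The arginine sensor CASTOR1, listed as GATSL3, was at -1.50, the Rag GTPase RRAGD at -1.88 and the leucine sensor SESN2 at -0.95, while GATSL2, a relative of CASTOR1, rose by 0.94. RRAGD had 0.559, 0.520 and 0.745 FPKM in siFOXD3, against 4.07, 5.94 and 4.82 FPKM in siNC, and so passed the filter on low values through the siNC libraries alone.

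Of 17 tested carriers outside the 7 families, SLC7A11 among them, 7 rose and 5 fell (median 0.19). The shares over all genes tested were 27.2% higher and 38.7% lower. The peptide carrier SLC15A1 averaged 0.234 FPKM in siFOXD3 and 2.32 FPKM in siNC (-1.42), and passed the filter on low values through the siNC libraries alone. The lysosomal carrier SLC17A5 averaged 10.3 FPKM in siFOXD3 and 21.0 FPKM in siNC (-0.96). SFXN3, a mitochondrial serine carrier, was at -0.95 and SFXN5 at 0.55.

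Promoter sequences from RefSeq (build GRCh38.p14, 250 bases before to 50 after a start site) were found for 35 of the 45 members, in 56 windows. They were searched on both strands for TGATGNAAT, an element bound by ATF4 with C/EBP partners, for the E-box CACGTG, bound by MYC and TFEB families, and for the forkhead core TGTTTAC. No member window held TGATGNAAT, which 0.991% of all 35116 windows and 0.748% of the tested genes with a window held. With a motif this rare, its absence from 56 windows cannot be read either way. CACGTG was in the windows of 6 of 23 tested members with a window (26.1%), against 12.7% of the 8825 tested genes with a window. TGTTTAC was in 2 of those 23 members, against 3.46% of the tested genes. These are matches of letters, not sites of binding.

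The stretches are shown for SLC36A1, SLC43A1, SLC7A5 and SLC1A5, the members called higher or lower that hold a match before a start site, 5′ to 3′ on the gene's strand, with the match in capitals; GTAAACA is TGTTTAC read on the other strand. The files' own values were made on hg19, so the coordinates belong to the sequences alone.
SLC36A1 CACGTG, chr5:151447535-151447602, plus strand: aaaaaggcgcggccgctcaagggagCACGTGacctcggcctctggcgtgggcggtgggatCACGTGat
SLC43A1 CACGTG, chr11:57515784-57515839, minus strand: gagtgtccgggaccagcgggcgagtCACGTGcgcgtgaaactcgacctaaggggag
SLC43A1 TGTTTAC, chr11:57514910-57514958, minus strand: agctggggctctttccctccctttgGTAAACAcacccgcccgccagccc
SLC7A5 CACGTG, chr16:87869607-87869662, minus strand: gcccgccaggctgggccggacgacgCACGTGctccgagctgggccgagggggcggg
SLC1A5 CACGTG, chr19:46787313-46787368, minus strand: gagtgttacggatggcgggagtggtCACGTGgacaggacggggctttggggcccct
SLC1A5 TGTTTAC, chr19:46785010-46785064, minus strand: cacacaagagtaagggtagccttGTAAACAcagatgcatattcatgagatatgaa
The first bases of the SLC36A1 matches lie 43 and 8 bases before its start site, and those of the CACGTG matches of SLC43A1, SLC7A5 and SLC1A5 lie 112, 130 and 50 bases before theirs. The TGTTTAC matches of SLC43A1 and SLC1A5 begin 24 and 227 bases before other start sites of these genes. Members with CACGTG lay on both sides: SLC36A1 rose, SLC43A1, SLC7A5 and SLC1A5 fell, and SLC38A7, with its match after the start site, and SLC7A7 were not called.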

How the data were processed

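RNA of 6 libraries of A549 cells was profiled, 3 siFOXD3 and 3 siNC, grouped by sample title. Per the labels' protocols, libraries were made with an Illumina TruSeq kit from Trizol RNA; the protocol names retina while the cell type label names A549, which was followed. Each deposited file gives 1 FPKM value for a symbol, the unit being stated per the file headers. TopHat, Cufflinks and hg19 are named per the submitters' processing notes, with versions, annotation and strand not given in the sources used here. Rows of 1 symbol were summed and an absent symbol set to 0.

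All genes with at least 1 FPKM in 3 or more of the 6 libraries were tested. FPKM are not counts, so limma 3.58.1 (R 4.3.3, trend and robust) was run on log2(FPKM + 1) with the group as the only term. This scale understates changes of low genes. Depth was estimated from steps between low values of genes with 1 transcript of 700 to 4000 bases in GENCODE 29, at an assumed fragment length of 150 bases. GENCODE 29 also gave overlapping genes by name. Python 3.11.15 with pandas 2.3.3 and matplotlib 3.10.9 did the rest.

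Members and lists were chosen with earlier results of these data known. Every member may be named; each library's value is given for members called with a change of at least 0.5 on the log2 scale or with a group mean of at least 20 FPKM, and for some others. From each list, up to 4 called genes with the largest change are named, with ATF4 and SLC7A11. The forkhead motif and the values of SLC7A7, SLC7A8, SLC38A3 and SLC36A1 by library were added after values were seen. Alternatives were other pseudocounts, filters and scalings, limma without trend and robust, a replicate block and leaving out each library.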

Additional observations from a re-analysis of the deposited data

How the results depend on the processing

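Of the 19 called members, 12 kept their direction and call in every alternative in which they were tested, 7 lost the call in at least 1 and none changed sign. Of the 7 tested members not called, 5 were called in at least 1 alternative. SLC1A3 and SLC43A1 could not be tested without any 1 siNC library, since they then fell under the filter. Across alternatives, 6 to 11 members were called higher and 8 to 14 lower, and of all genes 7278 to 8908. These counts have unlike numbers tested. The 14 lower and the 8908 came without a filter, with 45 members and 17787 genes tested. The 8 lower came without siNC replicate 2, with 24 members tested. Leaving out 1 library each gave 7278 to 7974 genes called, 6 to 11 members called higher and 8 to 10 lower. Quantile normalization moved the median of all genes from -0.08 to 0.03 and called 10 members higher and 9 lower; of all called genes, 4863 were lower and 3415 higher as deposited, against 3843 lower and 4249 higher there and 4168 lower and 4092 higher with median-of-ratios scaling, which called 11 members higher and 9 lower. SLC7A5 summed with its pseudogene rows, chosen after seeing the data, was at -0.14 (adjusted p = 0.0349).

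Members near 0 changed sign. SLC1A1 was between -0.0102, without siNC replicate 2, and 0.133 when 1 library was left out. SLC38A7 was at 0.127 with quantile normalization, at 0.0659 with median-of-ratios scaling and between -0.0816 and 0.0517 when 1 library was left out. SLC38A9 was at 0.0357 with quantile normalization, at 0.0446 with median-of-ratios scaling and between -0.147 and 0.0503 when 1 library was left out. The cause was not tested.

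With the replicate number of the titles as a block, 8172 genes, 9 members higher and 12 lower were called, SLC38A10 (adjusted p = 0.0418) and SLC7A7 (adjusted p = 0.0154) among them. Same-numbered libraries correlated in their deviations from the group means at 0.06, 0.16 and 0.11, so the samples share a number and no pairing is shown, although each library correlated best with its own number.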
